A study of Mus musculus with 58 samples.

Results

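Abca1, Abcg1, Pltp, Mylip and Lpl were followed as a set of 5 genes of cholesterol efflux and lipoprotein handling that the liver X receptors (LXR) are known to control in macrophages. They were found by name among the 25307 genes of a deposited table, where each had 1 row. The table held 58 3′ tag libraries of messenger RNA from liver cells of 129SV mice. Kupffer cells gave 20 of the libraries, and monocyte-derived macrophages and monocytes gave 19 each. Each cell type came from 5 groups of mice. In the CBDL2w and CBDL6w groups the common bile duct had been ligated for 2 and 6 weeks, the DSS group had acute colitis, the CBDL+DSS group combined advanced cholestatic injury with colitis, and the Sham6w group was the 6-week control. Groups held 4 libraries, except 3 for the Sham6w groups of monocyte-derived macrophages and monocytes. The labels give 1 strain and no transgene, and do not say when colitis began in the ligated mice. Replicates were pooled in 9 libraries, whose titles join 2 or 3 replicate numbers (1+2+5, for example). No label says that replicates came from separate animals, so the p-values speak of library-to-library spread alone, which may be technical.

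LXRα (Nr1h3) and LXRβ (Nr1h2) are nuclear receptors that bind oxysterols and, paired with retinoid X receptors, switch on genes that remove sterol from the cell. ABCA1 loads cholesterol and phospholipid onto apolipoprotein A-I, and ABCG1 passes cholesterol to formed HDL particles. The other three act around the particle: PLTP moves phospholipids between lipoproteins, MYLIP (also called IDOL) is a ubiquitin ligase that limits lipoprotein uptake, and LPL is the lipase that hydrolyses lipoprotein triglyceride. Kupffer cells, the resident macrophages of the liver sinusoids, take up lipoproteins and dying cells, and cholestasis raises the sterol and bile acid load that reaches them.

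On the GRCm38 build, Abca1 (ENSMUSG00000015243) lies on chromosome 4 at 53030787-53159895 on the minus strand and Abcg1 (ENSMUSG00000024030) on chromosome 17 at 31057675-31117988 on the plus strand. Pltp (ENSMUSG00000017754) is on chromosome 2 at 164839518-164857711 on the minus strand, Mylip (ENSMUSG00000038175) on chromosome 13 at 45389742-45412022 on the plus strand, and Lpl (ENSMUSG00000015568) on chromosome 8 at 68880491-68907448 on the plus strand. Pltp and the lysosomal carboxypeptidase gene Ctsa meet tail to tail and share 495 exon bases. Whether counting used the strand is not given in the sources used here, so Ctsa is reported beside Pltp.

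To show where an LXR element could lie, the 250 bases before the start of Abca1, Pltp and Mylip, the 3 members matched in the promoter table, are given 5′ to 3′ on the gene's strand, from RefSeq on GRCm38.p6. They span chr4:53159896-53160145 (minus strand) for Abca1, chr2:164857709-164857958 (minus strand) for Pltp and chr13:45389492-45389741 (plus strand) for Mylip. Capitals mark a match to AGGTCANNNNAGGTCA, the direct repeat with a spacer of 4 bases that LXR and its partner bind, on either strand and with up to 3 mismatches over its 12 fixed positions.
Abca1: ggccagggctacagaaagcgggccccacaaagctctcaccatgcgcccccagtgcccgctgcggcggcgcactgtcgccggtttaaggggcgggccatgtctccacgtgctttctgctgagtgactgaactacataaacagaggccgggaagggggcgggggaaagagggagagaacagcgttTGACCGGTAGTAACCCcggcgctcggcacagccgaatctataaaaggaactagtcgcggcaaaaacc
Pltp: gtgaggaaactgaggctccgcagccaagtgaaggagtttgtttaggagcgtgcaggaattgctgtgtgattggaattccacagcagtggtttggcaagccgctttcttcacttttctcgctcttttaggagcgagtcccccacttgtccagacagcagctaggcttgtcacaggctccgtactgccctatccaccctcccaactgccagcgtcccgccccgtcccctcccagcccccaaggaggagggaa
Mylip: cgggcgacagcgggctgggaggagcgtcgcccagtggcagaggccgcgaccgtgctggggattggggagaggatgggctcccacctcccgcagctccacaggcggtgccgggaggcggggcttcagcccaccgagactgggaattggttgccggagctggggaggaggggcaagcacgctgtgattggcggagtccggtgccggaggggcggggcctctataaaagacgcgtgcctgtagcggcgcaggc
Of these 3, Abca1 held a match, on the antisense strand from 67 to 52 bases before the start, which reads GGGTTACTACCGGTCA with 3 mismatches. The same search matched 18.5% of 32851 promoters of this length, so a match is common. The promoters of Abcg1 and Lpl were not analysed here. None of the 3 held one with up to 2 mismatches, against 2.57% of all promoters; the limit of 3 was set after the stricter search had been seen. Overlap with other motifs was not searched. A match is a description of letters, and whether a matched stretch is bound was not tested here.

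Levels are the authors' normalized counts, and changes are log2 differences of the normalized count plus 1 with their standard error (SE). Adjusted p-values are from limma, adjusted over all genes tested with a threshold of 0.05. Library totals ran from 118687 to 521954 reads. The shallowest was monocyte-derived macrophage Sham6w replicate 1+2+5, where 1 read is worth 2.48 normalized counts. A list of 10 Kupffer cell markers took 0.255 to 0.877% of reads in Kupffer cells, while monocyte-derived macrophages had 0.0624 to 0.328% and monocytes 0.0276 to 0.1515%. The ranges of Kupffer cells and macrophages overlapped between injury groups but not within any of them. They came closest in CBDL6w mice, with 0.255% in the lowest Kupffer cell library and 0.2305% in the highest macrophage library. A list of 10 classical monocyte markers took 0.0241 to 0.185% in Kupffer cells, while monocyte-derived macrophages had 0.0812 to 0.482% and monocytes 0.533 to 1.12%. In bulk libraries, fewer cells of a type and less RNA per cell cannot be told apart.

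All 5 genes were read in every Kupffer cell library. Kupffer cells stood above monocytes for 4 members in Sham6w mice (16.0% of 7555 genes differed), 5 after 2 weeks of ligation (14.4%), 5 after 6 weeks (15.3%), 3 in colitis (14.7%) and 5 in CBDL+DSS mice (14.4%). They stood above monocyte-derived macrophages for 4 members in Sham6w mice (15.9%), 3 at each ligation time (6.63% at 2 weeks and 9.66% at 6 weeks), and 2 in each colitis group (13.5% in DSS and 4.88% in CBDL+DSS). No member was called lower in Kupffer cells than in another cell type. Lpl passed in all 10 of these comparisons. In Sham6w mice it averaged 167 ± 78.7 normalized counts in Kupffer cells (SD, n = 4) against 50.1 ± 15.9 in monocytes (SD, n = 3), a log2 difference of 1.65 ± 0.34 (SE, adjusted p = 0.000202). With the joined libraries left out, which leaves 1 Sham6w library in each of the other cell types, the Sham6w calls were lost for Lpl, Abca1 and Pltp against monocytes (adjusted p = 0.148, 0.169 and 0.117) and for Abca1, Pltp and Mylip against monocyte-derived macrophages (0.214, 0.636 and 0.355).

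Pltp stood above monocytes by up to 4.26 ± 0.60 on the log2 scale, in CBDL6w mice (SE, adjusted p = 3.34e-07), where it averaged 77.4 ± 23.0 normalized counts in Kupffer cells and 3.63 ± 3.17 in monocytes (SD, n = 4 each). Pltp had no read in 3 of 19 monocyte libraries, where 3 reads would give 2.76 to 3.8 normalized counts. It stayed under the filter of the monocyte fit, so its injury effects there were not tested. Abcg1 differed from monocytes in all 5 groups, by 1.28 to 1.78 on the log2 scale. Some differences from monocyte-derived macrophages rested on single libraries. That of Abcg1 in CBDL2w mice was lost without Kupffer cell replicate 1, 3 or 4 or macrophage replicate 1 or 4 (adjusted p = 0.0519 to 0.247), and that of Abca1 in CBDL6w mice without Kupffer cell replicate 2 or 3 or macrophage replicate 1 or 3 (0.0566 to 0.0945). Pltp in CBDL+DSS mice lost its call without Kupffer cell replicate 2 or 6 or macrophage replicate 3 (0.0534 to 0.0645), and in Sham6w mice without Kupffer cell replicate 1, 2 or 4 or macrophage replicate 1+2+5 or 4+6 (0.0504 to 0.222). Against monocytes, Mylip in CBDL+DSS mice lost its call without Kupffer cell replicate 1+3, 2 or 6 or monocyte replicate 2 or 4+5 (0.0544 to 0.276).

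Ordered by group mean over the 15 groups, Abca1, Abcg1 and Lpl formed a series in which every group overlapped the next in its library values. Kupffer cells of CBDL+DSS mice led for Abca1, Pltp, Mylip and Lpl, and those of CBDL2w mice led for Abcg1. Pltp broke at the top, where Kupffer cells of CBDL+DSS mice shared no value with those of CBDL6w mice, and between Kupffer cells of CBDL2w mice and monocyte-derived macrophages of CBDL+DSS mice. Mylip broke between Kupffer cells of DSS mice and monocytes of CBDL2w mice. The group with the lowest mean was the DSS group of monocyte-derived macrophages for Abca1 and the DSS group of monocytes for Abcg1, while Pltp and Lpl were lowest in CBDL2w monocytes and Mylip in CBDL6w monocytes.

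**Figure D1:**
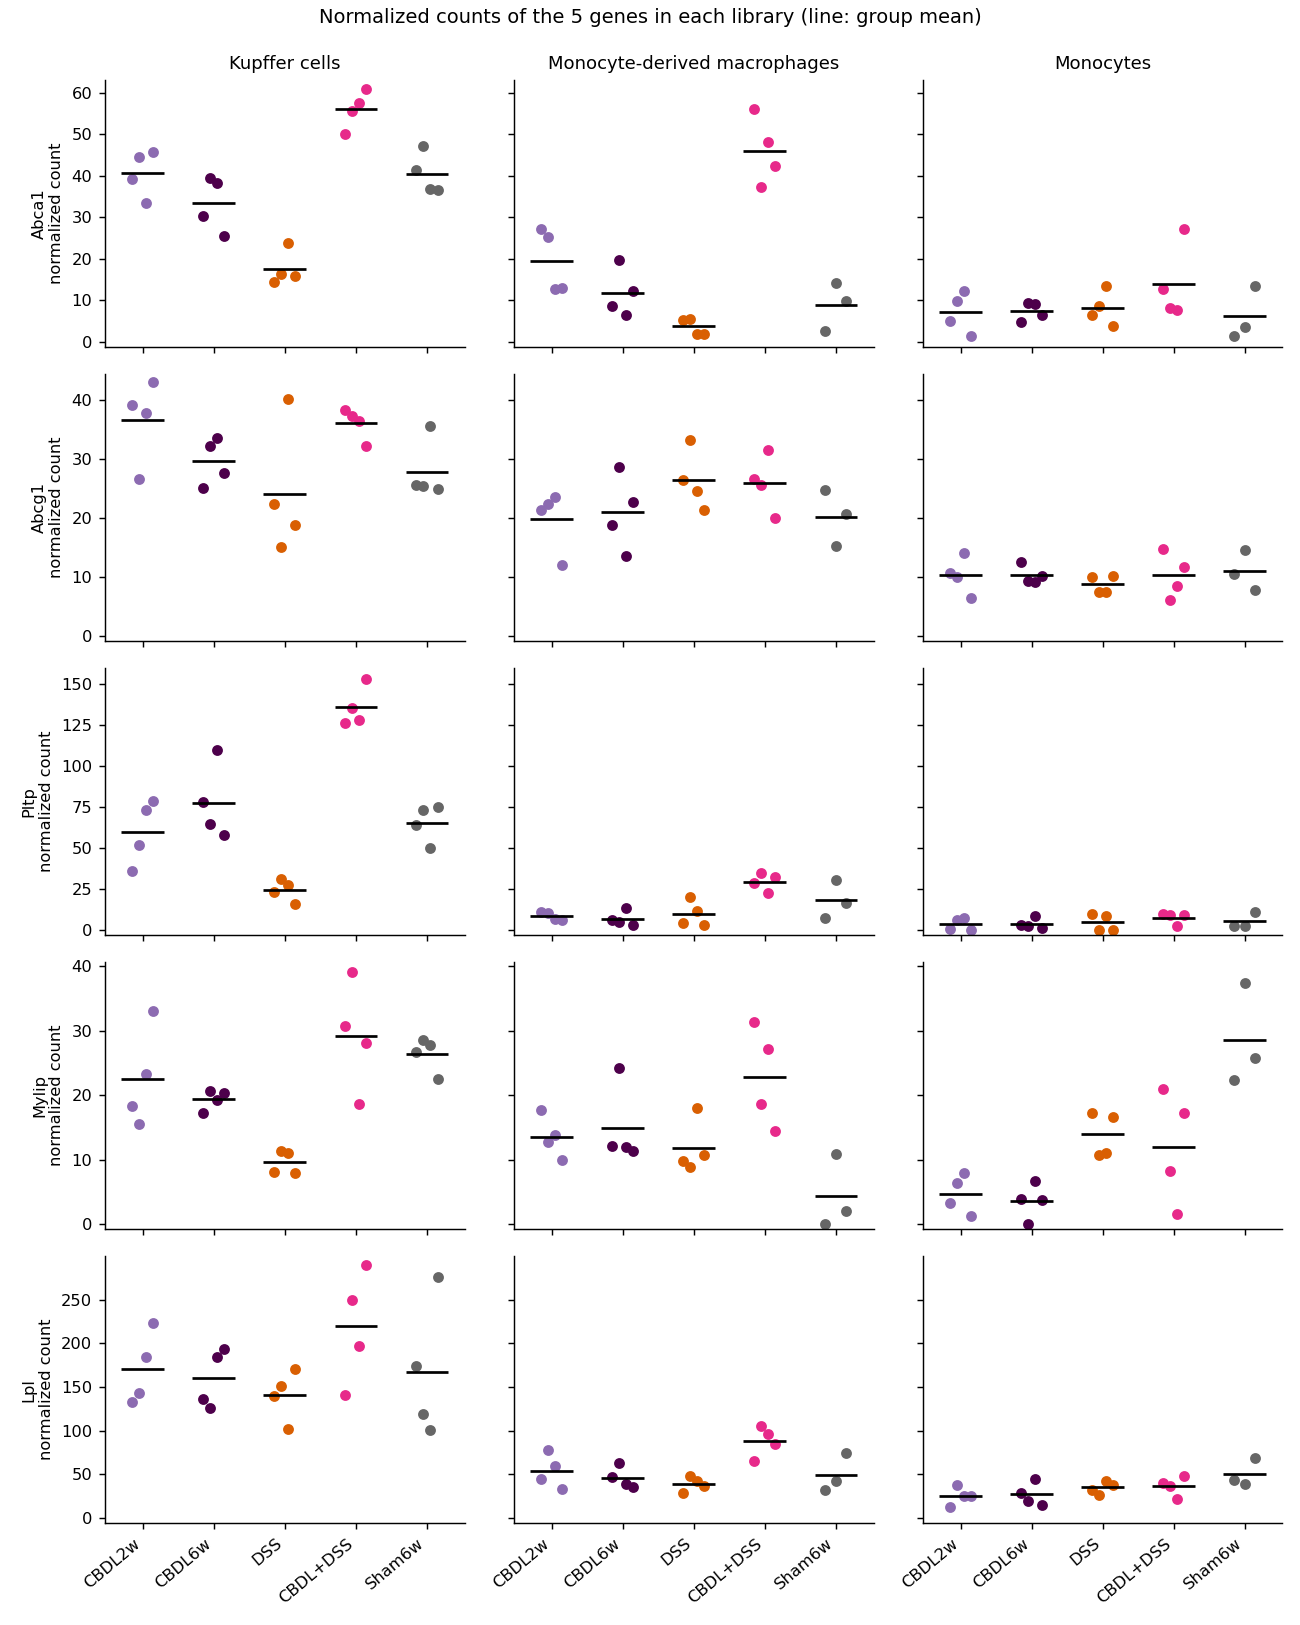
Normalized counts of the 5 genes (y axis, 1 row of panels per gene) in each library (points) by group, with the group mean as a line; columns are the 3 cell types. In Kupffer cells the 4 DSS libraries of Abca1, Pltp and Mylip sit below all 4 Sham6w libraries, and the 4 CBDL+DSS libraries of Pltp, from 126 to 153, sit above them.

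In colitis alone, 3 of the 5 genes fell in Kupffer cells: Abca1, Pltp and Mylip, beside 7.89% of 6159 genes that differed in that comparison. Abca1, the efflux pump, had 14.3, 16.3, 23.8 and 15.9 normalized counts in DSS mice, against 41.5, 47.3, 36.7 and 36.5 in Sham6w mice. Its log2 change was -1.18 ± 0.21 (SE, adjusted p = 0.00193). Pltp, the phospholipid carrier, had 23.2, 31.3, 27.4 and 15.9 in DSS mice, against 63.9, 73.4, 49.6 and 74.7 in Sham6w mice, a log2 change of -1.41 ± 0.25 (SE, adjusted p = 0.00185). Mylip, the ligase, had 8.04, 11.3, 11.0 and 7.94 in DSS mice, against 26.6, 28.5, 27.8 and 22.4 in Sham6w mice, a log2 change of -1.38 ± 0.27 (SE, adjusted p = 0.00367). For each of the 3, the groups did not overlap, as for 16.2% of genes tested. The Mylip values rest on 8 to 12 reads per DSS library and 25 to 47 per Sham6w library.

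Over 15 alternatives, leaving out single libraries included, none of these 3 calls was lost, and the highest adjusted p was 0.0147 for Abca1, 0.0105 for Pltp and 0.0205 for Mylip. The remaining members did not pass. Abcg1 had 22.4, 15.0, 40.3 and 18.9 normalized counts in DSS mice and 25.6, 25.5, 35.7 and 24.9 in Sham6w mice, with DSS replicate 3 the highest of the 8, and a 95% interval of -0.82 to 0.25 around its log2 change of -0.28. Lpl had 140, 151, 102 and 171 against 174, 119, 100 and 276, with an interval of -0.72 to 0.40 around -0.16, and its sign turned without Sham6w replicate 4 (0.12).

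Several other measures moved in the same Kupffer cell libraries. Ctsa, which overlaps Pltp, averaged 44.3 ± 2.51 normalized counts in DSS mice and 97.5 ± 19.8 in Sham6w mice (SD, n = 4 each), a log2 change of -1.10 ± 0.17 (SE, adjusted p = 0.000376), so the falls of Pltp and Ctsa cannot be told apart where their exons overlap. A list of 10 tissue macrophage markers took 0.558 to 0.639% of reads in DSS mice and 0.868 to 0.971% in Sham6w mice, and the 10 Kupffer cell markers took 0.569 to 0.748% in DSS and 0.773 to 0.877% in Sham6w mice; all were detected in both groups. The 10 classical monocyte markers took 0.0443 to 0.1086% in DSS mice and 0.0241 to 0.0322% in Sham6w mice, without overlap. DSS replicate 4 had the highest share of hepatocyte markers of its group, 0.201%. Their part in the falls was not tested.

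Bile duct ligation alone left these genes without a call in Kupffer cells. None of the 5 passed after 2 weeks (2.71% of genes tested) or 6 weeks (3.25%), and none differed between the 6-week and 2-week groups (0.0%). Mylip had 17.2, 20.6, 19.2 and 20.3 normalized counts in CBDL6w mice, all below the 22.4 to 28.5 of Sham6w mice, as for 9.56% of genes, and did not pass. With colitis on top of ligation, Pltp alone passed against Sham6w, among 3.31% of genes. It had 126, 135, 128 and 153 normalized counts in CBDL+DSS mice, against 63.9, 73.4, 49.6 and 74.7 in Sham6w mice, with no overlap, as for 12.3% of genes. The log2 change was 1.06 ± 0.25 (SE, adjusted p = 0.0192). The call was lost without Sham6w replicate 3 (adjusted p = 0.0736), without CBDL+DSS replicate 6 (0.073) and with the joined libraries left out (0.0967). Ctsa averaged 80.4 ± 3.1 in CBDL+DSS mice against 97.5 ± 19.8 in Sham6w mice (SD, n = 4 each), a log2 change of -0.25 that did not pass (adjusted p = 0.511).

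Set against ligation alone, colitis with ligation gave no call among the 5 in Kupffer cells (1.74% of genes). Abca1 had 50.2, 55.7, 57.5 and 60.9 normalized counts in CBDL+DSS mice and 30.4, 39.5, 38.4 and 25.6 in CBDL6w mice, a log2 difference of 0.74 ± 0.21 (SE, adjusted p = 0.0799). Pltp had 126 to 153 in CBDL+DSS mice and 78.0, 64.6, 109 and 57.6 in CBDL6w mice, a difference of 0.84 ± 0.25 (SE, adjusted p = 0.0968). For both genes the groups did not overlap, as for 7.89% of genes. DESeq2 on recovered reads called both (adjusted p = 0.0293 for Abca1 and 0.0277 for Pltp), and Pltp also passed without CBDL6w replicate 3 (adjusted p = 0.0446).

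**Figure D2:**
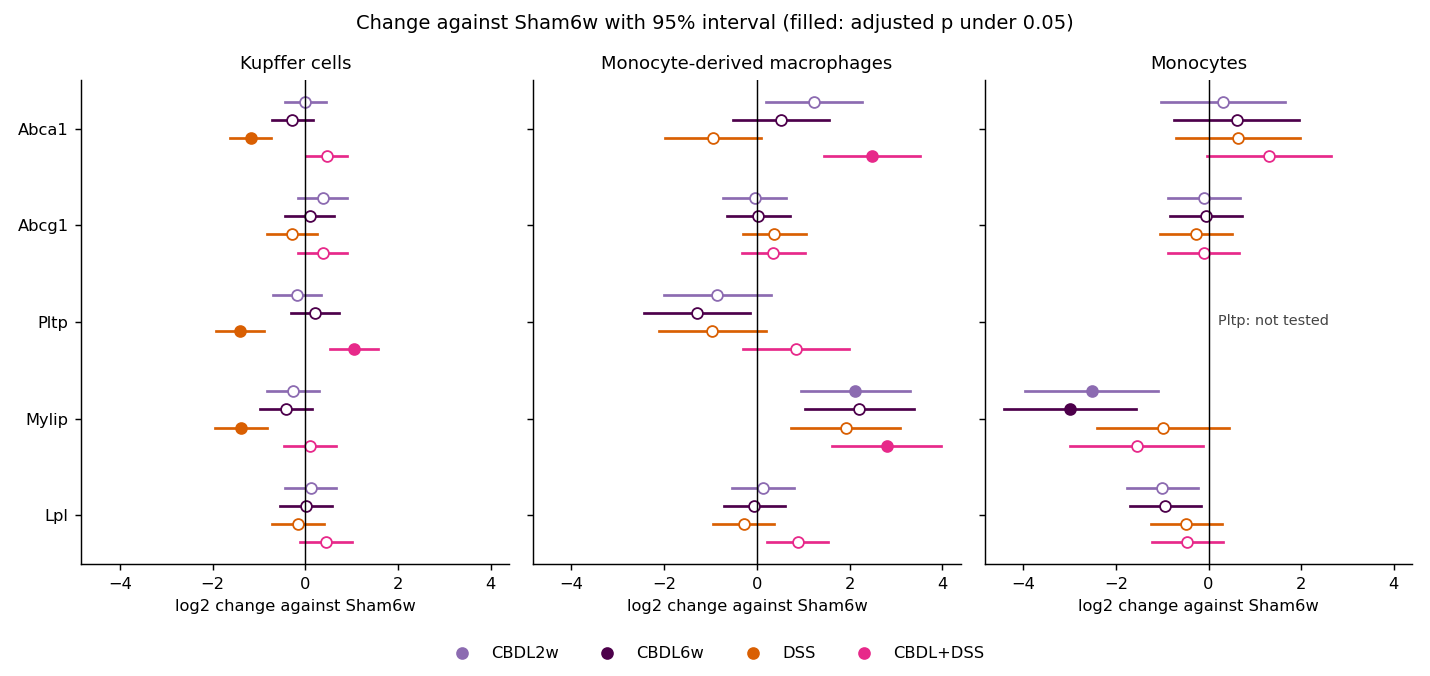
Log2 change of each gene against Sham6w (x axis) by cell type (panels) with its 95% interval (lines); points are filled where the adjusted p was under 0.05, and colours are the injury groups. In Kupffer cells Abca1, Pltp and Mylip have filled points below 0 for DSS, while in monocytes only Mylip has filled points, at -2.52 and -2.98 for the ligated groups.

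In monocyte-derived macrophages, which descend from blood monocytes that enter the injured liver, most calls came where ligation and colitis were combined. Abca1 and Mylip rose against Sham6w, 2 of 5 members beside 9.8% of 6079 genes. Abca1 had 56.1, 37.2, 48.2 and 42.5 normalized counts in CBDL+DSS mice, against 2.48, 14.1 and 9.82 in Sham6w mice. Its log2 change was 2.49 ± 0.50 (SE, adjusted p = 0.00265). Mylip had 31.2, 18.6, 27.1 and 14.4 in CBDL+DSS mice, against 0, 10.9 and 1.96 in Sham6w mice, a change of 2.80 ± 0.57 (SE, adjusted p = 0.00278). For both genes the groups did not overlap, as for 19.0% of genes. Each call was lost with the joined libraries left out, where 1 Sham6w library was left and was assumed to vary like the others (log2 changes of 1.65 for Abca1 and 1.14 for Mylip).

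Against ligation alone, Abca1 and Pltp rose in monocyte-derived macrophages of CBDL+DSS mice, beside 4.16% of genes. Abca1 had 8.58, 19.6, 6.39 and 12.3 normalized counts in CBDL6w mice, and differed by 1.98 ± 0.46 on the log2 scale (SE, adjusted p = 0.0152). Pltp had 28.5, 34.6, 22.6 and 32.1 in CBDL+DSS mice, against 6.01, 4.52, 13.6 and 2.84 in CBDL6w mice, a difference of 2.14 ± 0.51 (SE, adjusted p = 0.0176). Neither gene overlapped between the groups, as for 12.4% of genes. The Abca1 call was lost without CBDL6w replicate 3 (adjusted p = 0.0635). That of Pltp was lost without CBDL6w replicate 4 (0.0606) or CBDL+DSS replicate 2 (0.0548). Mylip differed by 0.60 ± 0.53 between these groups, which overlapped, and did not pass (SE, adjusted p = 0.616). Its change against Sham6w was 2.12 in CBDL2w, 2.21 in CBDL6w and 1.92 in DSS mice, beside 2.80 in CBDL+DSS mice.

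Pltp in those cells had 7.43, 30.4 and 16.7 normalized counts in Sham6w mice, overlapping the CBDL+DSS libraries, and its change against Sham6w, 0.85, did not pass (adjusted p = 0.354). Lpl, the lipase, had 65.2, 106, 96.5 and 85.0 in CBDL+DSS mice, against 47.2, 63.3, 39.1 and 35.1 in CBDL6w mice. Its difference of 0.93 ± 0.30 did not pass (SE, adjusted p = 0.0754), but did without CBDL6w replicate 2 (0.0418) and with DESeq2 (0.0262). Against Sham6w, with 32.2, 42.4 and 74.6, its change of 0.88 did not pass either (adjusted p = 0.084; 0.0265 without Sham6w replicate 4+6).

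The tissue macrophage markers took 0.489 to 0.599% of reads in monocyte-derived macrophages of CBDL+DSS mice, against 0.234 to 0.380% in CBDL6w mice and 0.275 to 0.382% in Sham6w mice; all 10 were detected in each group. The Kupffer cell markers did not separate in that way, with 0.0739 to 0.1595% in CBDL+DSS mice, 0.0634 to 0.2305% in CBDL6w mice and 0.102 to 0.328% in Sham6w mice. Classical monocyte markers took 0.2185 to 0.2505% in CBDL+DSS mice against 0.0812 to 0.134% in Sham6w mice, and 6 cholangiocyte markers 0.0291 to 0.0478% against 0.0 to 0.00306%. Of the cholangiocyte markers, Krt8 had no read in CBDL+DSS mice, and Krt7, Sox9, Krt8 and Krt18 had none in Sham6w mice. That list includes Spp1, whose part of the share was not separated. Lower in CBDL+DSS mice were 8 B cell markers, with 0.00377 to 0.00987% against 0.0598 to 0.2216% in Sham6w mice, and 9 T and NK cell markers, with 0.000553 to 0.00312% against 0.00927 to 0.0437%. Cd79a, Ms4a1 and Pax5 were among the B cell markers with no read in CBDL+DSS mice. Ctsa averaged 68.9 ± 16.4 normalized counts in CBDL+DSS mice (SD, n = 4) and 30.6 ± 5.84 in Sham6w mice (SD, n = 3), a log2 change of 1.13 ± 0.30 (SE, adjusted p = 0.0179). Against CBDL6w mice, where Pltp rose, Ctsa differed by 0.57, which did not pass (adjusted p = 0.276). The part of these in the rises was not tested.

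With a single injury, monocyte-derived macrophages gave 1 call. Mylip rose in CBDL2w mice (3.06% of genes), with 17.6, 12.7, 13.7 and 9.95 normalized counts against 0, 10.9 and 1.96 in Sham6w mice, which overlapped. The change of 2.12 ± 0.57 (SE, adjusted p = 0.0416) was 1.26 (adjusted p = 0.236) without Sham6w replicate 1+2+5, the library of 118687 reads in which it was not read; 3 reads there would give 7.43. The call was also lost without Sham6w replicate 4+6 (adjusted p = 0.0731) and without each of CBDL2w replicates 1, 2, 3 and 4 (0.105, 0.0813, 0.092 and 0.0589). It was lost as well with edgeR (log2 change 1.47, adjusted p = 0.207), DESeq2 (1.48, 0.158), a pseudocount of 5 (1.16, 0.0675), no filter (2.12, 0.063) and the joined libraries left out (0.26, 0.94), which makes 11 of 14 alternatives. No member passed in CBDL6w (1.22%) or DSS mice (2.07%), or between CBDL6w and CBDL2w mice (0.0823%). Mylip had log2 changes of 2.21 in CBDL6w mice (adjusted p = 0.0551) and 1.92 in DSS mice (adjusted p = 0.0773), and both passed without Sham6w replicate 3 (0.00258 and 0.00518).

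The effect of colitis was then compared between mice with ligation (CBDL+DSS minus CBDL6w) and mice without it (DSS minus Sham6w). In Kupffer cells the effects differed for Abca1, Pltp and Mylip, 3 of 5 members beside 6.02% of genes. The difference was 1.92 ± 0.30 for Abca1 (SE, adjusted p = 0.00079), 2.25 ± 0.36 for Pltp (SE, adjusted p = 0.000796) and 1.91 ± 0.38 for Mylip (SE, adjusted p = 0.00509). Each of the 3 fell with colitis where the duct was intact. With the duct ligated, Mylip differed by 0.52 ± 0.27 between CBDL+DSS and CBDL6w mice (SE, adjusted p = 0.373), and the uncalled differences of Abca1 and Pltp were also above 0. None of these 3 calls was lost in 23 alternatives. Ctsa gave a difference of 1.40 ± 0.24 beside Pltp (SE, adjusted p = 0.00134). The 10 Kupffer cell markers took 0.255 to 0.527% of reads in CBDL6w and 0.575 to 0.707% in CBDL+DSS mice, without overlap. Without ligation they were lower in colitis, with 0.569 to 0.748% in DSS and 0.773 to 0.877% in Sham6w mice. Tissue macrophage markers overlapped with ligation, at 0.706 to 0.857% in CBDL6w and 0.737 to 0.822% in CBDL+DSS mice. The part of these shares in the differences was not tested.

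Monocyte-derived macrophages gave the same sign for the efflux pump and the phospholipid carrier, with calls for Abca1 (2.91 ± 0.68, SE, adjusted p = 0.0254) and Pltp (3.10 ± 0.76, SE, adjusted p = 0.0326) beside 2.09% of genes. Mylip had the opposite sign to that in Kupffer cells, -1.32 ± 0.77, and did not pass (SE, adjusted p = 0.417). Lpl (1.22, adjusted p = 0.173) and Abcg1 (-0.05, adjusted p = 0.972) did not pass either. Abca1 had 5.30, 5.54, 1.89 and 1.94 normalized counts in DSS mice, against 2.48, 14.1 and 9.82 in Sham6w mice, and its own change of -0.94 in colitis alone did not pass (adjusted p = 0.334). The call of Abca1 was lost without CBDL6w replicate 3, Sham6w replicate 3, Sham6w replicate 4+6, DSS replicate 3 or CBDL+DSS replicate 1, with adjusted p from 0.0525 to 0.0644. That of Pltp was lost without CBDL6w replicate 1 or 4, Sham6w replicate 3 or 4+6, DSS replicate 1 or 5+6, or CBDL+DSS replicate 1, 2 or 4+5, from 0.0509 to 0.0801, and with no filter on low values (0.0549). In monocytes none of the 4 members tested differed (0.311% of genes); Mylip differed by 2.41 ± 0.94 (SE, adjusted p = 0.215).

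**Figure D3:**
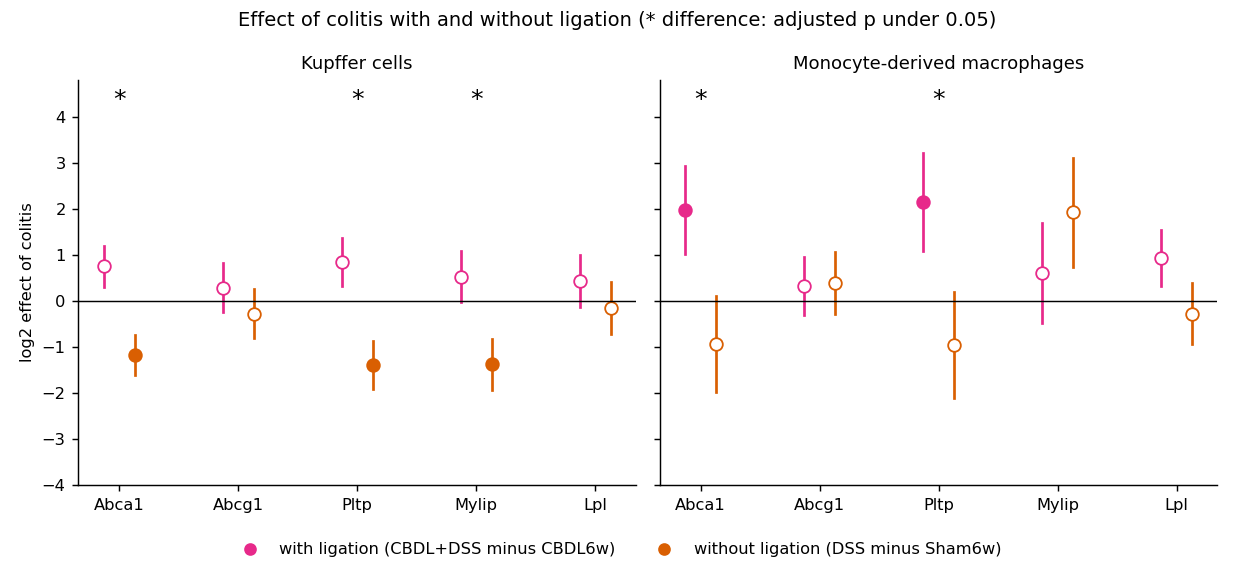
Log2 effect of colitis (y axis) with its 95% interval for the 5 genes, with ligation (CBDL+DSS minus CBDL6w) left of without ligation (DSS minus Sham6w), in Kupffer cells and monocyte-derived macrophages; points are filled and stars drawn where the adjusted p was under 0.05. The effects of Abca1, Pltp and Mylip in Kupffer cells, and of Abca1 and Pltp in monocyte-derived macrophages, lie apart, by 1.91 to 3.10.

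Mylip was the member whose course differed most between cell types. In monocytes it fell with ligation, 1 of 4 members tested in CBDL2w (13.8% of 6112 genes) and in CBDL6w mice (11.2%). It had 3.28, 6.31, 7.93 and 1.27 normalized counts in CBDL2w mice and 3.84, 0, 6.63 and 3.79 in CBDL6w mice, against 22.3, 37.4 and 25.7 in Sham6w mice. Neither ligated group overlapped Sham6w, as for 22.9% and 21.6% of genes. The log2 changes were -2.52 ± 0.69 (SE, adjusted p = 0.0156) and -2.98 ± 0.69 (SE, adjusted p = 0.00641). Both were lost with the joined libraries left out (adjusted p = 0.19 and 0.131), and that of CBDL2w also without Sham6w replicate 3+6 (0.0771) or CBDL2w replicate 4 (0.0585).

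Mylip in monocytes had 17.2, 10.7, 11.1 and 16.5 normalized counts in DSS mice and 21.0, 8.18, 1.54 and 17.2 in CBDL+DSS mice, below Sham6w without overlap (16.0% and 24.9% of genes). Those changes of -0.98 and -1.55 did not pass (adjusted p = 0.477 and 0.144), and no member did in DSS (1.59%) or CBDL+DSS monocytes (13.1%). None passed between CBDL6w and CBDL2w monocytes (0.0%) or between CBDL+DSS and CBDL6w monocytes (0.573%).

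The difference between cell types was tested directly. Mylip changes against Sham6w were higher in monocyte-derived macrophages than in monocytes by 4.64 ± 0.79 in CBDL2w (SE, adjusted p = 0.000417), 5.19 ± 0.79 in CBDL6w (SE, adjusted p = 0.000164) and 4.36 ± 0.79 in CBDL+DSS mice (SE, adjusted p = 0.000772). It was the single member called in each, beside 1.38%, 0.649% and 2.12% of 7555 genes. The 3 calls were lost with the joined libraries left out (adjusted p = 0.35, 0.248 and 0.548). In Sham6w mice, the group that these changes share, Mylip differed by -3.14 ± 0.59 between monocyte-derived macrophages and monocytes (SE, adjusted p = 0.00041; 6.15% of genes), a call also lost in that setting.

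Kupffer cells and monocyte-derived macrophages differed in the Mylip change by -3.30 ± 0.76 in DSS mice (SE, adjusted p = 0.0207; 0.86% of genes) and by -2.71 ± 0.76 in CBDL+DSS mice (SE, adjusted p = 0.0427; 1.99% of genes). Without Sham6w replicate 1+2+5 of the macrophages, these were -2.44 (adjusted p = 0.122) and -1.85 (adjusted p = 0.3). The first was also lost with edgeR (0.0811) and with the joined libraries left out (0.545). The second was lost in 17 of 22 alternatives, among them without any 1 of the 4 Kupffer cell Sham6w libraries, macrophage Sham6w replicate 4+6, Kupffer cell CBDL+DSS replicate 1+3, 4+5 or 6, or macrophage CBDL+DSS replicate 1, 2 or 3 (adjusted p = 0.0554 to 0.0957). For Abca1 and Pltp, colitis changes in monocyte-derived macrophages were -0.94 and -0.96 and did not pass (adjusted p = 0.334 and 0.377). The falls in Kupffer cells were not shown to differ from these changes, with 95% intervals of the difference of -1.58 to 1.09 and -2.23 to 1.34. Abca1 in CBDL+DSS mice differed by -2.03 ± 0.67 between these cells, which did not pass (SE, adjusted p = 0.102), and passed with a pseudocount of 5, with DESeq2 and without macrophage Sham6w replicate 3 (0.0434, 0.031 and 0.036). No member passed in the other contrasts of this kind: Kupffer cells against monocyte-derived macrophages in CBDL2w (0.344% of genes) and CBDL6w mice (0.397%), Kupffer cells against monocytes in CBDL2w (1.67%), CBDL6w (1.58%), DSS (0.238%) and CBDL+DSS mice (0.821%), and macrophages against monocytes in DSS mice (0.0397%).

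Endothelial, B cell and T and NK cell markers were low in the ligated groups of monocytes. The 12 endothelial markers took 0.01115 to 0.0168% of reads in CBDL2w, 0.00906 to 0.0276% in CBDL6w, 0.135 to 0.286% in DSS and 0.0149 to 0.0281% in CBDL+DSS mice, against 0.205 to 0.354% in Sham6w mice. All 12 were detected in the DSS, CBDL+DSS and Sham6w groups, while Esam had no read in CBDL2w and Emcn none in CBDL6w libraries. The 8 B cell markers took 0.00215 to 0.00487% in CBDL2w, 0.00669 to 0.016% in CBDL6w, 0.011 to 0.019% in DSS and 0.00265 to 0.0219% in CBDL+DSS mice, against 0.0308 to 0.0581% in Sham6w mice, where Cd79a and Ms4a1 were among those with no read. The 9 T and NK cell markers took at most 0.00119% in CBDL2w, 0.000837% in CBDL6w and 0.0025% in CBDL+DSS mice, against 0.00379 to 0.0127% in Sham6w mice. In monocyte-derived macrophages of DSS mice the endothelial share was 0.133 to 0.140% and Mylip averaged 11.8 ± 4.18 normalized counts; in those of CBDL+DSS mice the share was 0.00692 to 0.0412% and Mylip averaged 22.9 ± 7.7 (SD, n = 4 each). In monocytes, 7 patrolling monocyte markers took 0.1644 to 0.2112% in CBDL2w, 0.1497 to 0.1962% in CBDL6w and 0.1792 to 0.2021% in DSS mice. CBDL+DSS mice had 0.1738 to 0.1882%, and all lay below the 0.2371 to 0.2603% of Sham6w mice. Classical monocyte markers there took 0.9371 to 1.116% in CBDL2w, 0.8239 to 0.9229% in CBDL6w and 0.8752 to 1.124% in CBDL+DSS mice. These lay above the 0.5334 to 0.8066% of Sham6w mice, which the DSS range, 0.6633 to 0.8375%, overlapped. The part of these shares in the monocyte Mylip level was not tested.

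**Figure D4:**
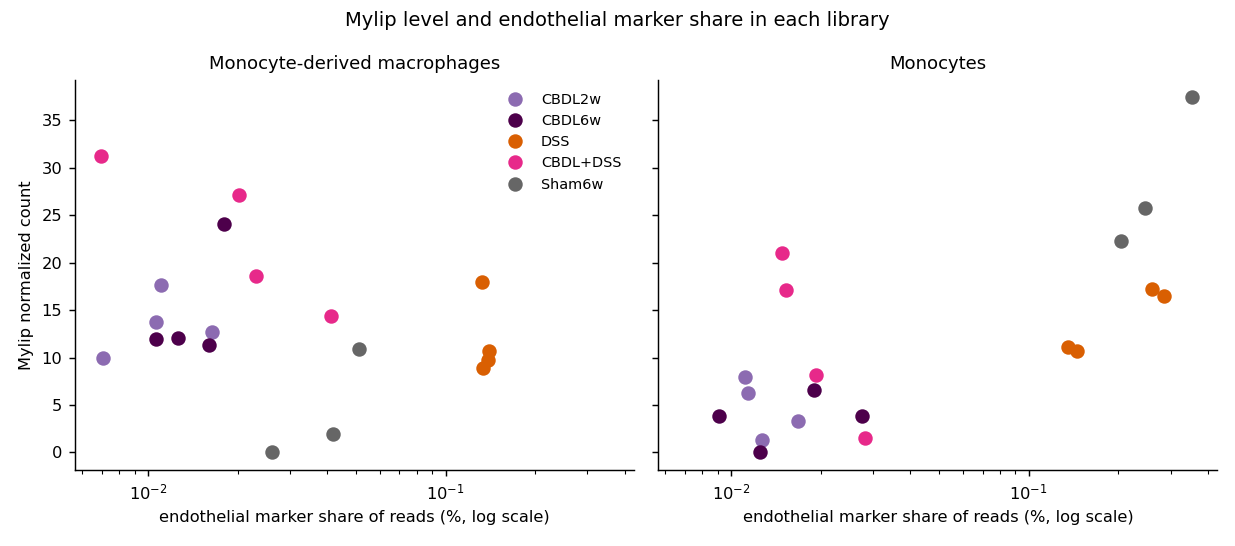
Mylip normalized count (y axis) against the share of reads in 12 endothelial markers (x axis, percent, log scale), 1 point per library coloured by group, in monocyte-derived macrophages and monocytes. In monocytes the 3 Sham6w libraries have the highest Mylip values, 22.3 to 37.4, and shares of 0.205% or more, while the 2 highest CBDL+DSS libraries reach 17.2 and 21.0 at low shares.

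Abcg1 and Lpl had no call against Sham6w in any cell type. Abcg1 group means ran from 24.1 to 36.7 normalized counts in Kupffer cells, while those of monocyte-derived macrophages lay between 19.8 and 26.4 and those of monocytes between 8.74 and 10.9. Lpl means lay between 141 and 219 in Kupffer cells, between 38.8 and 88.0 in monocyte-derived macrophages and between 25.5 and 50.1 in monocytes. In monocytes, Lpl had 13.1, 37.9, 25.5 and 25.4 in CBDL2w mice and 28.8, 19.8, 44.7 and 15.2 in CBDL6w mice, against 43.3, 38.6 and 68.2 in Sham6w mice. Its changes of -0.99 and -0.93 did not pass (adjusted p = 0.0783 and 0.112), but did without CBDL2w replicate 2 (0.0431) and without CBDL6w replicate 3 (0.0405). Monocyte-derived macrophages stood above monocytes for Abca1, Abcg1, Pltp and Lpl in CBDL+DSS mice (4.29% of genes), for Abcg1 in DSS mice (2.32%), for Mylip in CBDL6w mice (2.16%) and for none in CBDL2w mice (2.01%). In CBDL+DSS mice Abca1 lost this call without monocyte replicate 2 or 4+5 (adjusted p = 0.0503 and 0.0607), Lpl without monocyte replicate 4+5 (0.0752), and Pltp without any 1 of the 8 libraries compared (0.0585 to 0.223). Mylip in CBDL6w mice lost it without macrophage replicate 2 (0.0743) or monocyte replicate 2 (0.166).

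Neither receptor passed the test where the targets changed most. Nr1h3, the main LXR of Kupffer cells, averaged 110 ± 18.2 normalized counts in DSS mice and 148 ± 32.2 in Sham6w mice (SD, n = 4 each), a log2 change of -0.42 that did not pass (adjusted p = 0.287). In monocyte-derived macrophages of CBDL+DSS mice, where Abca1 and Mylip rose, its change was -1.44 (adjusted p = 0.0724), and in those of CBDL6w mice it fell by 2.05 on the log2 scale (adjusted p = 0.0451). Nr1h3 stood above monocytes in Kupffer cells of all 5 groups, by 2.73 to 3.72. Nr1h2 did not pass in any comparison within a cell type. Of 6 receptors and partners, all tested in Kupffer cells, 1 fell in DSS mice, beside 7.89% of 6159 genes that differed. This was the corepressor Ncor1, with 177 ± 18.8 against 249 ± 35.2 in Sham6w mice (SD, n = 4 each). Its log2 change was -0.49 (adjusted p = 0.0481). Ncor1 also fell in CBDL+DSS mice in monocyte-derived macrophages (-0.95, adjusted p = 0.0049) and monocytes (-0.65, adjusted p = 0.0374).

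Of 17 other LXR targets, 11 could be tested in Kupffer cells. In DSS mice 3 fell and none rose, beside 7.89% of 6159 genes that differed. Apoe, which encodes an apolipoprotein that accepts cholesterol, had 481, 500, 436 and 768 normalized counts in DSS mice, against 2455, 2570, 1966 and 1627 in Sham6w mice, a log2 change of -1.99 ± 0.17 (SE, adjusted p = 2.64e-07). Apoc1 fell by 1.09 (adjusted p = 0.0276) and Mertk, a receptor for dying cells, fell by 0.63 (adjusted p = 0.0295). The list had a median change of -0.31 there, against -0.07 over all genes. The colitis effect with ligation minus that without it was positive for 4 of the 11, beside 6.02% of genes that differed. The differences were 2.27 for Apoc1, 1.93 for Apoe and 1.39 for Mertk (adjusted p = 0.003, 0.000109 and 0.00188).

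In monocyte-derived macrophages, where 8 of the 17 could be tested, Apoe had 3262, 2536, 2011 and 1987 normalized counts in CBDL+DSS mice, against 469, 344, 425 and 414 in CBDL6w mice. Its difference was 2.54 ± 0.20 (SE, adjusted p = 4.68e-08). It fell in DSS mice, with 202, 184, 148 and 176 against 324, 515 and 624 in Sham6w mice, by 1.41 on the log2 scale (adjusted p = 0.00132). Mertk averaged 64.5 ± 12.7 in CBDL+DSS mice and 13.6 ± 5.48 in CBDL6w mice (SD, n = 4 each; log2 difference 2.22, adjusted p = 0.00209). The list had 2 genes higher and none lower in that comparison, beside 4.16% of genes that differed. Its median was 0.21 against 0.03 over all genes. Apoe, which was chosen with its values known, gave effects of colitis that differed by 3.95 ± 0.29 with and without ligation (SE, adjusted p = 1.59e-08).

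Genes of sterol uptake, storage and lysosomal release split in Kupffer cells of DSS mice. Of 9 tested out of 12, 1 rose and 3 fell, beside 7.89% of 6159 genes that differed. Msr1, a scavenger receptor, had 178 ± 18.9 normalized counts against 114 ± 13.9 in Sham6w mice (SD, n = 4 each; log2 change 0.64, adjusted p = 0.00695), and also rose in CBDL6w (0.50, adjusted p = 0.0429) and CBDL+DSS mice (0.50, adjusted p = 0.0435). Lipa, the lysosomal acid lipase, fell by 1.26 (adjusted p = 0.0207) and Npc2, which carries cholesterol out of the lysosome, fell by 0.50 (adjusted p = 0.0435). In monocytes Soat1, which esterifies cholesterol, rose in CBDL2w (0.92, adjusted p = 0.00827) and CBDL6w mice (0.80, adjusted p = 0.0243). In monocyte-derived macrophages of CBDL+DSS mice, Msr1 (1.65, adjusted p = 0.0166) and Npc2 (1.07, adjusted p = 0.0012) rose against Sham6w.

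The opposite arm of sterol control was little read. Of 23 genes of cholesterol synthesis and SREBP2 targets, 5 could be tested in Kupffer cells and 11 in the other cell types. None of the 5 passed against Sham6w in Kupffer cells, beside 2.71 to 7.89% of genes in those comparisons. Results for the 11 in the other cell types are not given here. None of 4 oxysterol enzymes passed the filter within a cell type, and of 8 other ABC transporters 2 were tested in Kupffer cells with no call. Of 8 partners of LPL and other lipases, 3 could be tested in Kupffer cells and 4 in the other cell types. From this list Sel1l rose in Kupffer cells of DSS mice, beside 7.89% of genes that differed. It averaged 54.7 ± 13.8 normalized counts, against 31.9 ± 9.19 in Sham6w mice (SD, n = 4 each). Its log2 change was 0.76 ± 0.24 (SE, adjusted p = 0.0495). Gpihbp1, which holds LPL on capillary endothelium, fell in monocytes of CBDL2w, CBDL6w and CBDL+DSS mice, the groups with the low endothelial marker shares given above.

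Across the 15 group means of log2 levels, among 847 genes with a mean of at least 50 normalized counts, the genes whose pattern was most like that of Abca1 were Ctsb (Pearson r = 0.961), Apoe (0.955) and Lgmn (0.954). For Abcg1 they were Axl (0.922), Cadm1 (0.913) and C1qb (0.901), and for Pltp they were Csf1r (0.954), Hmox1 (0.949) and Adgre1 (0.949). Mylip was most like Tmbim6 (0.888), Snx3 (0.808) and Mrc1 (0.79), and Lpl most like C1qc (0.971), Igf1 (0.969) and Myo9a (0.963). The 15 means share libraries between genes and the split between 3 cell types, which is large for most of these genes.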

How the data were processed

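Libraries were made from total RNA with the QuantSeq 3′ mRNA FWD kit and its UMI module, per the labels' protocols. Named in the submitters' processing notes, with no order or settings, are RSEM 1.3.1, STAR 2.7.5b, Trimmomatic 0.39 and 0.39-1, UMI-tools 1.0.1, DESeq2 and the GRCm38.p6 build. The deposited table holds the authors' counts divided by a size factor per library, a signal that is not a whole count; multiplied back, 100.0% of values came within 0.01 of whole reads, apart from 3 columns printed with mixed precision. Gene names came from GENCODE M21 (25272 of 25307 matched). limma 3.58.1 (trend, robust; R 4.3.3) was fitted to log2(normalized count + 1) in 1 fit per cell type and 1 over all 58 libraries, for genes with at least 10 normalized counts in at least 3 libraries, with two-sided tests, Benjamini-Hochberg adjustment and a threshold of 0.05. The script was tested on simulated data. Alternatives were DESeq2 1.42.0 and edgeR 4.0.16 on recovered reads, a pseudocount of 5, no filter, equal totals, a replicate block, single replicate numbers only, and leaving out each library. Total reads per library, 118687 to 521954, limit precision for genes with few reads, and floors from 3 reads cover counting error only. All 5 members are named; of the pathway lists, up to 3 called genes per comparison with the largest change, where either group averaged 50 or more, plus Nr1h3, Nr1h2 and Apoe; 1 further gene of the rule is not reported here. Ctsa was added after the overlap with Pltp was seen. The members and lists were chosen with earlier results of these data known.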

Additional observations from a re-analysis of the deposited data

Results flagged for a closer look

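In 3 of 65 groups of 4 libraries, 1 library lay far from the others of its group; chance gives this in about 1 in 20 groups. Abcg1 was highest in Kupffer cell Sham6w replicate 3, with 35.7 normalized counts against 24.9 to 25.6 in the other three. Pltp was lowest in monocyte CBDL+DSS replicate 4+5, with 2.32 against 9.04 to 9.45. Mylip was highest in monocyte-derived macrophage CBDL6w replicate 2, with 24.1 against 11.4 to 12.0, and that library also had the highest Kupffer cell marker share of its group, 0.2305%.

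The effect of colitis with ligation minus that without it differed from 0 for 5 member results (limma). In Kupffer cells the difference was 1.92 for Abca1, 2.25 for Pltp and 1.91 for Mylip. In monocyte-derived macrophages it was 2.91 for Abca1 and 3.1 for Pltp.

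Injury effects against Sham6w differed between cell types for Mylip alone. The DSS effect in Kupffer cells minus that in monocyte-derived macrophages was -3.3, and the CBDL+DSS effect differed by -2.71 between the same cells. Monocyte-derived macrophages minus monocytes gave 4.64 for CBDL2w, 5.19 for CBDL6w and 4.36 for CBDL+DSS.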

How the results depend on the processing

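Of 233 member results, 64 were called; 34 kept their call in every alternative and 30 lost it at least once, and none of the 64 changed sign. Losses numbered 75 under leave-one-out, 22 with single replicate numbers only, 8 with no filter, 3 with edgeR, 2 each with DESeq2 and equal totals, 1 with a pseudocount of 5 and 0 under the replicate block, which added 3 calls. Same-numbered libraries correlated at 0.095 or less in their deviations, under the limit of 0.1 set for calling them paired. Across cell types, 32 of 45 libraries still correlated best with their own number (median r 0.0346 for the same number and -0.0108 for others), a hint of shared replicates from the data and not from the design; across injury groups it was 17 of 72. With single replicate numbers only, the count of members called against Sham6w was 0 in monocyte-derived macrophages (3 with all libraries) and 0 in monocytes (2), and the count of injury effects differing between cell types was 0 (5); that count was 9 with a pseudocount of 5 and 3 with edgeR. This setting leaves 1 Sham6w library in each of those cell types. DESeq2 called 2 members, against 0, for CBDL+DSS against CBDL6w in Kupffer cells, and with no filter 1 member, against 2, kept a colitis difference in monocyte-derived macrophages. Leaving out 1 library at a time gave 3 to 4 members called against Sham6w in Kupffer cells (4 with all), against 2 to 5 for monocyte-derived macrophages and 1 to 3 for monocytes, 0 to 1 for CBDL+DSS against CBDL6w in Kupffer cells and 1 to 3 in monocyte-derived macrophages, 3 to 3 and 0 to 2 for the colitis difference in the same cells, 39 to 45 between cell types and 3 to 9 for injury effects between them. Of 169 uncalled results, 61 changed sign in some alternative. Among those discussed, sign changes included Lpl in DSS Kupffer cells without Sham6w replicate 4 (0.12, with -0.37 at the other end, without replicate 3). Pltp in CBDL+DSS monocyte-derived macrophages turned with single numbers only (-0.11). The Abca1 difference in DSS effect between Kupffer cells and monocyte-derived macrophages turned with edgeR (0.17), DESeq2 (0.24), single numbers only (0.44) and without Sham6w replicate 1+2+5 (0.38). That of Pltp turned in the last 2 settings (0.084 and 0.049). The cause was not tested. Over all genes, the count for DSS in Kupffer cells, 486, ran from 241 with no filter to 632 with DESeq2, and that for CBDL+DSS against Sham6w in monocyte-derived macrophages, 596, from 127 with single numbers only to 654 with a pseudocount of 5. Depth limits Abca1, Pltp and Mylip outside Kupffer cells, where each has libraries of 0 or 1 read.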
